A study of Coryphaena hippurus with 21 samples.

Results

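The miR-130, miR-301 and miR-454 names of the mahi-mahi (Coryphaena hippurus) larval miRNA tables were followed through exposure to 2 oils. Every name with the number of miR-130, miR-301 or miR-454 was taken, whatever its species prefix, letter or arm. This gave 6 of the 329 names counted: ccr-miR-454b, ola-miR-130c, ipu-miR-130c, hsa-miR-130b-5p, dre-miR-301c-5p and ssa-miR-301a-5p. The prefixes stand for common carp, medaka, channel catfish, human, zebrafish and Atlantic salmon, and they name the species of the matched entry, since no mahi-mahi entry was among them. The family was chosen by its measured levels, because several of its names were lower under source oil than in control larvae, so the values of source oil against control are a description and not a test.

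Whole larvae at 48 h post fertilization were sequenced as small RNA, 3 libraries for each of 7 groups and 21 in all. Freshly fertilized eggs had been placed in diluted HEWAF, oil blended into seawater at high energy, made from oil of the Deepwater Horizon spill. Slick oil is weathered oil skimmed from the sea surface and source oil comes from the well. Slick oil was given at 0.5% (slick L), 1% (slick M) and 2% (slick H), source oil at 0.125% (source L), 0.25% (source M) and 0.5% (source H), and control larvae had seawater alone. Source oil samples bear the word mass in their titles, and were read as source oil because no other oil than slick and source is named. All larvae came from spawns of captive wild-caught broodstock and were exposed in static beakers with no renewal of the water. RNA was taken from pooled larvae, and nothing states that the libraries of a group were separate pools, so the p-values measure the spread between these libraries, which may be technical.

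MicroRNAs are short RNAs cut from a hairpin precursor, and bases near the 5′ end, the seed, guide them to messenger RNAs that they repress. The shared seed of miR-130, miR-301 and miR-454 lies on the 3p arm of their hairpins. In the human genome miR-301a and miR-454 are encoded near each other in an intron of SKA2, and miR-130b beside miR-301b. In mammals the family is best known from blood vessels, where it represses PPARG and has been studied in pulmonary hypertension, and miR-130a is linked to the growth of vessels in human endothelial cells. Of the 6 names, 3 are 5p arms (miR-301c, miR-301a and miR-130b) and do not carry the family seed, 3 do not state an arm (both miR-130c names and miR-454b) and 0 are named as 3p. The family label therefore holds by number, and for the 5p names not by seed. No sequence was read here.

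Levels are given as CPM, counts per 1000000 over the 99 names counted in all 21 libraries, after TMM scaling. Libraries carry the letters of their columns, L4, L5 and L6 in slick L, M4, M5 and M6 in slick M, H4, H5 and H6 in slick H, L1, L2 and L3 in source L, M1, M3 and M5 in source M, H1, H2 and H3 in source H, and C4, C5 and C6 in control, and values are given in that order. The libraries held 3157670 to 8736995 counts in exposed larvae and 6105389 to 7897029 in control larvae over the 6 tables. All 6 names had counts in all 21 libraries, between 101 for ola-miR-130c and 44132 for hsa-miR-130b-5p, and together took 0.131 to 0.916% of the counts in exposed and 0.67 to 0.836% in control libraries. Muscle miRNAs (miR-206, miR-1, miR-133) made up 20.3 to 47.4% of the counts of a library and neural miRNAs (miR-9, miR-124) 13.9 to 33.0%, and liver miR-122 between 0 and 1.31%. On the first principal component of these 99 names (50.8% of the variance) 7 libraries stood apart, all of source M, all of source H and library L3 of source L, at 5.06 or more against -2.06 or less for the other 14. The same 7 stood apart when the family was left out. In these whole-larva libraries, fewer cells that make a miRNA and less of it per cell cannot be told apart.

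The names split into 3 patterns. Both miR-301 5p names were lower than control in nearly all exposed libraries of both oils. The same 3 control libraries serve all 6 exposures, so likeness between exposures is not independent evidence. The name hsa-miR-130b-5p, the most abundant of the 6, stood above control in slick L and below it in source M. Its means in slick H and source L were close to the control mean. The source L libraries ran from 2021 to 5079 CPM, outside the control range of 3021 to 4140 CPM at both ends. The names with no arm, both miR-130c names and ccr-miR-454b, had means of 89.7 to 116% of the control mean in slick L and slick M but 11.6 to 33.8% of the control mean in source M and source H. In slick H they parted, at 136% for ccr-miR-454b, 62.5% for ipu-miR-130c and 76.1% for ola-miR-130c. Their grouping thus rests mainly on source oil, which chose the family.

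**Figure D1:**
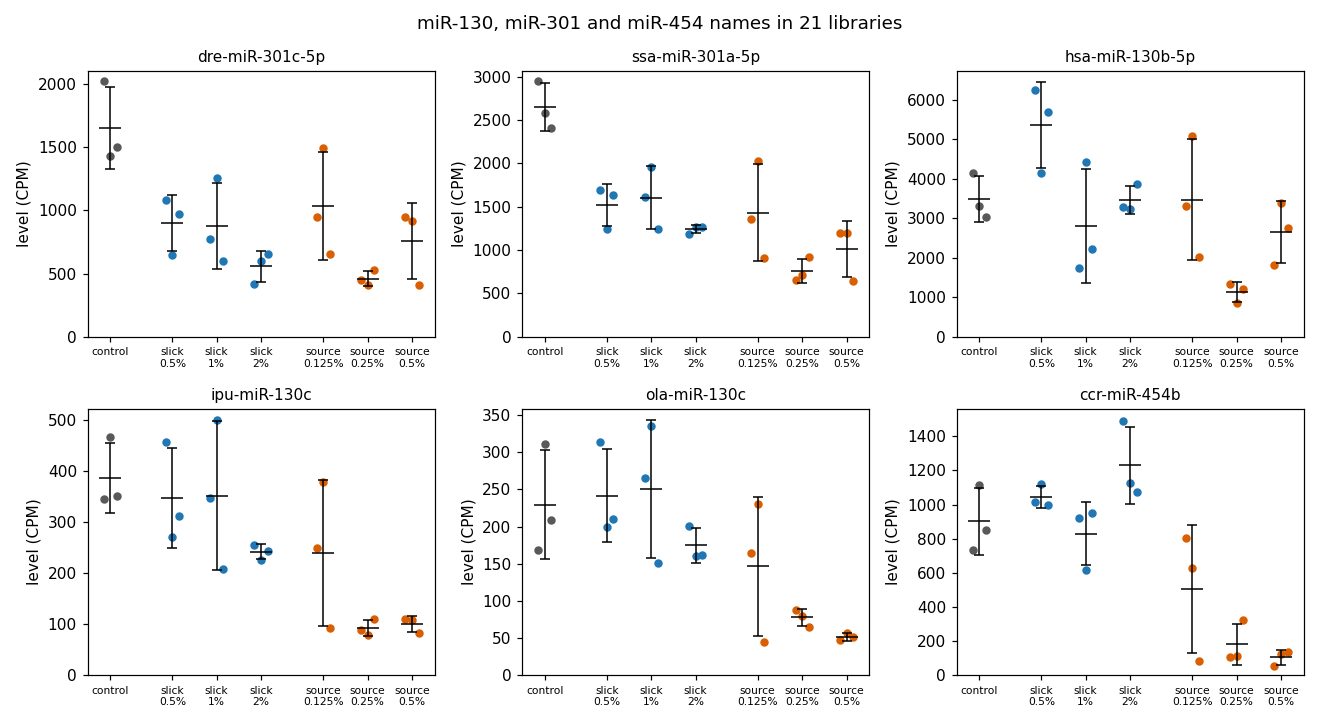
Level of each name (CPM, linear axis) in each of the 21 libraries by group, with grey points for control, blue for slick oil and orange for source oil; the horizontal bar is the group mean and the error bar the SD of 3 libraries. Both miR-301 5p names lie below control in most exposed libraries, while ccr-miR-454b reaches 1488 CPM in slick H and at most 135 CPM in source H.

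The name ssa-miR-301a-5p comes from the opposite arm of the miR-301a hairpin and had rank 37 of the 99 names by mean level. Its levels were 1689, 1246 and 1638 CPM in slick L, 1616, 1963 and 1241 CPM in slick M and 1187, 1266 and 1271 CPM in slick H. In source oil they were 1355, 2032 and 913 CPM in source L, 651, 707 and 922 CPM in source M and 1194, 1199 and 644 CPM in source H, against 2952, 2579 and 2414 CPM in control. All 18 exposed libraries lay below the lowest control library, 9 of them from source oil, which chose the family. In this and later paragraphs, counts of libraries outside the control range stand without the share over all names. Such counts are not read as particular to the family. Against control this name fell in slick H, with a log2 fold change of -0.92 ± 0.12 (SE, n = 3 each, adjusted p = 0.0148, edgeR quasi-likelihood test over 158 names). This call was lost when any 1 control library was left out, with edgeR adjusted p = 0.0656 without C4, 0.0766 without C5 and 0.109 without C6. It held when a slick H library was left out, with edgeR adjusted p = 0.0217 without H4, 0.0429 without H5 and 0.0485 without H6. Here and below the fold changes come from the fit of each exposure's own table. In slick L it was at -0.66 ± 0.16 (edgeR adjusted p = 0.0596) and in slick M at -0.62 ± 0.23 (edgeR adjusted p = 0.414).

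The name dre-miR-301c-5p belongs to the same arm of another miR-301 hairpin and followed the first closely. It stood at 1077, 649 and 974 CPM in slick L, 769, 1252 and 602 CPM in slick M and 416, 597 and 654 CPM in slick H. In source L it stood at 943, 1494 and 656 CPM, in source M at 445, 410.3 and 525 CPM and in source H at 948, 914 and 412 CPM, against 2021, 1426 and 1497 CPM in control. Of the 18 exposed libraries 17 lay below the lowest control, the exception being L2 of source L. On the scale of the source L fit alone, all source L libraries lay below control, so such range statements can change with the scaling. The name fell in slick H, to 556 ± 124.5 CPM in slick H against 1648 ± 325 CPM in control (SD, n = 3 each), a log2 fold change of -1.38 ± 0.23 (edgeR adjusted p = 0.0265). The call held without H4 and was lost in the other 5 fits that left out 1 library, with an edgeR adjusted p of 0.0946 without C4, 0.104 without C5, 0.131 without C6, 0.0875 without H5 and 0.0505 without H6. It was at -0.73 ± 0.24 in slick L (edgeR adjusted p = 0.115) and at -0.81 ± 0.35 in slick M (edgeR adjusted p = 0.421). The ratio of dre-miR-301c-5p to ssa-miR-301a-5p within a library was 0.35 to 0.51 in slick H and 0.55 to 0.68 in control. In slick H dre-miR-301c-5p thus had a lower share of the pair than in control. The ratio moved the other way in source L, at 0.70 to 0.73, and overlapped control in slick L, slick M, source M and source H. This ratio and those that follow were chosen after the values were seen.

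The third 5p name, hsa-miR-130b-5p, from the opposite arm of the miR-130b hairpin, did not follow the miR-301 names. Its levels were 6252, 4145 and 5690.4 CPM in slick L, 1737, 4435 and 2222 CPM in slick M and 3289, 3232 and 3869.5 CPM in slick H. In source oil they were 3317, 5079 and 2021 CPM in source L, 1333, 848 and 1214 CPM in source M and 1826, 3389.9 and 2753 CPM in source H, against 4139.7, 3302 and 3021 CPM in control. The slick L libraries all lay above control and the source M libraries all below it, while in the other 4 exposures the ranges overlapped control. The gap in slick L was narrow, with L5 at 4145 CPM beside C4 at 4139.7 CPM. The log2 fold change in slick L was 0.76 ± 0.21 and did not pass over all names (edgeR adjusted p = 0.0745). Among the 114 names counted in every library of that comparison it did, at 0.69 (edgeR adjusted p = 0.0219). In slick H it was at 0.17 ± 0.16 and in slick M at -0.21 ± 0.42.

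The name ccr-miR-454b had the widest relative range of the 6, with its slick H mean above and its source H mean below the control mean. It stood at 1013, 1118 and 997 CPM in slick L, 921, 617 and 948 CPM in slick M and 1488, 1129 and 1072 CPM in slick H. In source L it stood at 803, 627 and 84.9 CPM, in source M at 107, 115 and 320.3 CPM and in source H at 53.2, 124.5 and 135 CPM, against 734, 1116 and 853 CPM in control. The source M and source H libraries all lay below control, and within source L library L3 was far below L1 and L2, L1 inside the control range and L2 below it. The means were 104 ± 44.3 CPM in source H and 901 ± 196 CPM in control (SD, n = 3 each). No slick dose passed, with log2 fold changes of 0.33 ± 0.22 in slick L, -0.036 ± 0.25 in slick M and 0.59 ± 0.28 in slick H (edgeR adjusted p = 0.428, 0.988 and 0.29). The 95% interval of the last ran from -0.13 to 1.32.

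The names ipu-miR-130c and ola-miR-130c are the entries of miR-130c in catfish and medaka, and reads may be shared between them. Their counts were equal in 2 of the 21 libraries, M1 and M3 of source M (226 and 383 counts), and elsewhere ola-miR-130c had 0.424 to 0.788 times the count of ipu-miR-130c. For ipu-miR-130c the levels were 458, 271 and 312 CPM in slick L, 347, 501 and 208 CPM in slick M and 256, 226 and 244 CPM in slick H. In source oil it had 248, 378 and 92.96 CPM in source L, 88.2, 79.3 and 109 CPM in source M and 109.9, 109 and 82.2 CPM in source H, against 345, 467 and 351 CPM in control. The slick H, source M and source H libraries all lay below the lowest control, as did L5 and L6 of slick L, M6 of slick M, and L1 and L3 of source L. The log2 fold change in slick H was -0.52 ± 0.22 and did not pass (edgeR adjusted p = 0.224), although DESeq2 called it at -0.53 (adjusted p = 0.0348).

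For ola-miR-130c, the least abundant of the 6, the levels were 313, 199.9 and 211 CPM in slick L, 266, 335 and 151 CPM in slick M and 201, 161 and 162 CPM in slick H. In source L it had 164, 230.1 and 44.9 CPM, in source M 88.2, 79.3 and 65.2 CPM and in source H 46.5, 56.9 and 50.9 CPM, against 169, 311 and 209 CPM in control. All slick ranges overlapped control, and the source M and source H libraries lay below it without overlap. Source H averaged 51.4 ± 5.19 CPM against 229.6 ± 73.2 CPM in control (SD, n = 3 each). Its slick log2 fold changes were 0.19 ± 0.34, 0.23 ± 0.40 and -0.25 ± 0.32 in slick L, M and H, all within 1 SE of 0 and none past the test (lowest edgeR adjusted p = 0.83).

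**Figure D2:**
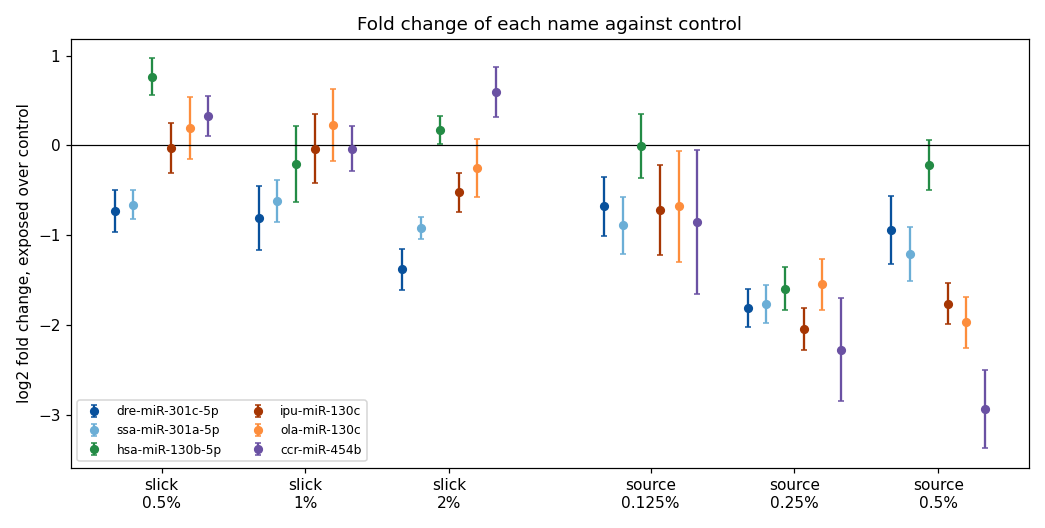
Log2 fold change of each name in each exposure over the control larvae (points, edgeR) with its approximate SE (bars), from the fit of each deposited table. The miR-301 5p names lie below 0 in all 6 exposures, the other 4 names lie between -0.21 and 0.76 in slick L and slick M, and all 6 lie below -1.5 in source M. All 6 exposures share the same control libraries.

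Slick oil against control asked whether the family answers to weathered surface oil. The slick libraries had no part in the choice of the family, but the control libraries did, and these p-values are therefore not independent of that choice. In slick H 2 of the 6 names fell and 0 rose, where 10.1% of all 158 names were called, 3.8% lower and 6.33% higher. The median log2 fold change was -0.39 over the 6 and 0.057 over all names. With the calls lost as given above, the share of all names called without 1 control library was 4.62% without C4, 0.588% without C5 and 0.575% without C6. DESeq2 called 3 of the 6, all lower, beside 24.1% of all names. For dre-miR-301c-5p the log2 fold change stayed between -1.55 and -1.27 over all alternatives, and that of ssa-miR-301a-5p between -0.99 and -0.90.

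In slick L edgeR called 0 of the 6 names, with 3 at an unadjusted p under 0.05, while 14.5% of all 159 names were called, 6.29% lower and 8.18% higher. DESeq2 called 3, beside 30.2% of all names, as did edgeR among the names counted in every library, where 38.6% of 114 names were called, 21.1% lower and 17.5% higher. Those 3 were both miR-301 5p names, lower, and hsa-miR-130b-5p, higher. In slick M edgeR called 0 of 6, with 1 at an unadjusted p under 0.05, beside 1.26% of all 159 names, and DESeq2 also called 0, beside 10.1%. The authors' deposited tables listed 4 of the 6 names in slick L, 2 in slick M and 6 in slick H. With their adjusted p under 0.05, 2 of the listed names were lower and 1 higher in slick L, 0 were called in slick M, and 3 were lower and 0 higher in slick H. Of all names those tables list, 42.7% were called in slick L (44 of 103), 16.4% in slick M (12 of 73) and 40.2% in slick H (39 of 97) by the authors' deposited tables. For ssa-miR-301a-5p the authors' deposited table gave a log2 fold change of -0.93 in slick H, with an adjusted p of 2.43e-68. For the same name and dose edgeR gave an adjusted p of 0.0148 with an SE of 0.12, and DESeq2 1.13e-49 with an SE of 0.062. The size of this p thus depends strongly on the method, and the edgeR call was lost without any 1 control library.

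Comparisons among the slick doses used neither the control nor the source libraries, and so do not rest on the libraries that picked the family. The family and the tests were still chosen with earlier results of these data known. Between slick H and slick L edgeR called 0 of 6 names at an adjusted p under 0.05 and 1 at an unadjusted p under 0.05, and 0% of all 142 names were called (13 at an unadjusted p under 0.05, 6 or 4.23% called by DESeq2). The lowest p of the 6 belonged to hsa-miR-130b-5p, at 3463 ± 353 CPM in slick H and 5362 ± 1091 CPM in slick L (SD, n = 3 each), a log2 fold change of -0.62 ± 0.21 with a 95% interval of -1.16 to -0.086 (edgeR adjusted p = 0.513). DESeq2 called it (adjusted p = 0.0395). The miR-301 5p names were at -0.69 ± 0.28 (dre-miR-301c-5p, 95% interval -1.40 to 0.023) and -0.29 ± 0.15 (ssa-miR-301a-5p, -0.67 to 0.084). The miR-130c names were at -0.52 ± 0.24 and -0.47 ± 0.24 for ipu-miR-130c and ola-miR-130c, and ccr-miR-454b was at 0.23 ± 0.17. The median of the 6 was -0.50, against -0.058 over all names. Between slick H and slick M edgeR called 0 of 6 names at an adjusted p under 0.05 and 0 at an unadjusted p under 0.05, and 0% of 137 names were called (20 at an unadjusted p under 0.05, 9 or 6.57% called by DESeq2, 0 of them in the family). The largest difference there was in dre-miR-301c-5p, at -0.73 ± 0.38. Between slick M and slick L edgeR called 0 of 6 names at an adjusted p under 0.05 and 0 at an unadjusted p under 0.05, and 0% of 137 names (19 at an unadjusted p under 0.05, 9 or 6.57% by DESeq2, 0 of them in the family). The largest difference between slick M and slick L was in hsa-miR-130b-5p, at -0.91 ± 0.42 (edgeR adjusted p = 0.39). It ran from -1.42 to -0.65 over all alternatives. Slick M was the most spread of the slick groups for hsa-miR-130b-5p, with M5 at 4435 CPM beside 1737 and 2222 CPM in M4 and M6.

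Source oil against control is the comparison by which the family was picked, so its folds and its counts of calls are a description. The counts stand beside the share of all names called for scale, and nothing about the family is read from them. In source L the log2 fold changes ran from -0.89 for ssa-miR-301a-5p to -0.010 for hsa-miR-130b-5p, and edgeR called 0 of 6 names (1 at an unadjusted p under 0.05, 1 called by DESeq2) beside 0% of all names tested by edgeR and 17.1% by DESeq2. Library L3, which stood apart with source M and source H, had the lowest level of the 3 for every one of the 6 names. Without L3 the source L value of ccr-miR-454b was -0.32 in place of -0.86. Likewise ipu-miR-130c was at -0.31 in place of -0.72, ola-miR-130c at -0.22 in place of -0.68 and hsa-miR-130b-5p at 0.27 in place of -0.010. The miR-301 5p names were at -0.65 (ssa-miR-301a-5p) and -0.44 (dre-miR-301c-5p) without it.

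In source M all 6 names were lower, from -1.55 for ola-miR-130c to -2.27 for ccr-miR-454b, and edgeR called 6 of 6 beside 24% of 150 names in either direction, 13.3% lower and 10.7% higher. The values between were -2.04 ± 0.23 for ipu-miR-130c, -1.81 ± 0.21 for dre-miR-301c-5p, -1.77 ± 0.21 for ssa-miR-301a-5p and -1.59 ± 0.24 for hsa-miR-130b-5p. DESeq2 called 6 of 6 beside 44% of all names. With total counts as scaling 0 of the 6 were called, beside 4.67% of all names, with log2 fold changes from -1.81 for hsa-miR-130b-5p to -2.36 for ccr-miR-454b. In source H edgeR called 3 of 6, all lower, beside 9.38% of 160 names, 4.38% lower and 5% higher. The 3 were the names with no arm, ccr-miR-454b (-2.94 ± 0.44), ola-miR-130c (-1.97 ± 0.29) and ipu-miR-130c (-1.76 ± 0.23). The 5p names stood at -1.21 ± 0.30 (ssa-miR-301a-5p), -0.95 ± 0.38 (dre-miR-301c-5p) and -0.22 ± 0.28 (hsa-miR-130b-5p). DESeq2 called 5 of 6 beside 38.8% of all names. Without library H2, C5 or C6 the edgeR count in source H was 0, beside 0, 1.16 and 1.75% of all names, and without C4 it was 1, beside 2.94%. The log2 fold changes without H2 were -3.13 for ccr-miR-454b, -1.87 for ipu-miR-130c and -2.10 for ola-miR-130c, and without C5 they were -2.83, -1.65 and -1.76 in the same order. The authors' deposited tables called 0 of the 6 names in source L, 6 of 6 lower in source M and 5 of 6 lower in source H, all but hsa-miR-130b-5p. Of all names listed in the authors' deposited tables, 14% were called in source L (24 of 171), 50.9% in source M (58 of 114) and 52.3% in source H (58 of 111). All libraries of source M and source H belong to the 7 that stood apart, so dose and that set cannot be told apart in them.

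Summed over the 6 names, the family stood at 9417 ± 1624 CPM in slick L, 6710.2 ± 2076 in slick M and 6907 ± 337 in slick H, and at 6828 ± 3013 in source L, 2702 ± 458 in source M and 4682 ± 963 in source H, against 9302 ± 1011 CPM in control (SD, n = 3 each). The order of the group means was slick L, control, slick H, source L, slick M, source H and source M, and among neighbours in that order the ranges parted only between control and slick H and between source H and source M. The 3 names with no arm summed to 1631 ± 137, 1431 ± 115 and 1646 ± 259.6 CPM in slick L, M and H. They summed to 891 ± 579, 350.2 ± 125 and 256 ± 41.4 CPM in source L, M and H, against 1518 ± 336 CPM in control. In slick oil 0 of 9 libraries lay below the control range of this sum, and in source oil, which chose the family, 9 of 9 did. The slick count does not hold for each name. Below the control range lay 6 of 9 slick libraries for ipu-miR-130c, 3 for ola-miR-130c and 1 for ccr-miR-454b. Above it lay 1, 2 and 3 in the same order. The 3 5p names summed to 7786 ± 1554, 5279 ± 2053 and 5260.3 ± 474 CPM in slick L, M and H, and to 5937 ± 2523, 2352 ± 354 and 4426 ± 935 CPM in source L, M and H, against 7784 ± 1165 CPM in control. For the 5p sum 6 of 9 slick and 8 of 9 source libraries lay below control. Source M stood at 23.1% of the control mean for the names with no arm and 30.2% for the 5p names, and source H at 16.8% and 56.9%. In these sums and in the shares below, any reads shared between the miR-130c names would count under each.

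The make-up of the family within a library does not depend on the scaling between libraries. The name hsa-miR-130b-5p took 54.3 to 57.9% of the summed level in slick L and 48.1 to 53.2% in slick H. In source L it took 48.6 to 53.0% and in source H 43.7 to 67.5%, against 35.9 to 40.0% in control. The share of ssa-miR-301a-5p was 15.6 to 16.7% in slick L, 17.4 to 19.1% in slick H and 19.8 to 23.9% in source L, against 28.0 to 28.9% in control. None of these ranges overlapped control. In slick M and source M the shares of hsa-miR-130b-5p (30.7 to 48.7% and 37.9 to 49.2%) did overlap it. The share of dre-miR-301c-5p was 8.50 to 9.97% in slick L, 11.2 to 13.8% in slick M and 6.08 to 9.03% in slick H. All of these lay below its control range of 15.5 to 19.5%, while its ranges in the source oil groups overlapped control. For ccr-miR-454b the share was 14.7 to 21.8% in slick H and 1.27 to 3.30% in source H, against 7.09 to 12.1% in control. Its ranges in slick L, slick M, source L and source M overlapped control. In source H ipu-miR-130c took 1.87 to 2.63%, against 3.33 to 5.07% in control. There ola-miR-130c took 0.982 to 1.25%, against 1.63 to 3.38% in control. Both miR-130c names overlapped control in every other exposure. All shares were added after the values were seen. In slick M, source M and source H the shares of ssa-miR-301a-5p (21.6 to 28.6%, 23.99 to 31.6% and 15.8 to 28.6%) overlapped control.

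**Figure D3:**
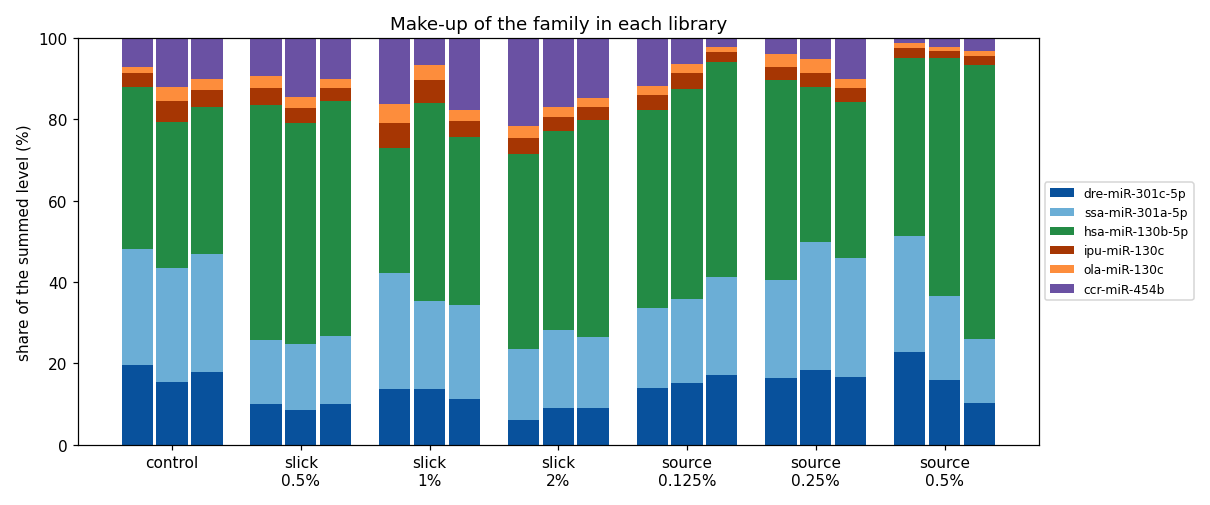
Share of each name in the summed level of the 6 names (percent, stacked to 100) in each of the 21 libraries, 3 bars per group in column order. The share of hsa-miR-130b-5p is 54.3 to 57.9% in slick L and 35.9 to 40.0% in control, and that of ccr-miR-454b is 14.7 to 21.8% in slick H and 1.27 to 3.30% in source H.

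The level of ssa-miR-301a-5p was 0.270 to 0.301 times that of hsa-miR-130b-5p in slick L, 0.443 to 0.930 times in slick M and 0.329 to 0.392 times in slick H. In source L the ratio was 0.400 to 0.452, in source M 0.488 to 0.834 and in source H 0.234 to 0.654, against 0.713 to 0.799 in control. It lay below control in all libraries of slick L, slick H, source L and source H, and the ranges of slick M and source M overlapped control. The ratio of ccr-miR-454b to ssa-miR-301a-5p was 0.600 to 0.897 in slick L, 0.314 to 0.764 in slick M and 0.844 to 1.25 in slick H. In source L it was 0.0929 to 0.592, in source M 0.162 to 0.348 and in source H 0.0446 to 0.209, against 0.249 to 0.433 in control. Slick L and slick H lay above control and source H below it. Capture can differ between names, so only the change of a ratio between libraries is read.

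**Figure D4:**
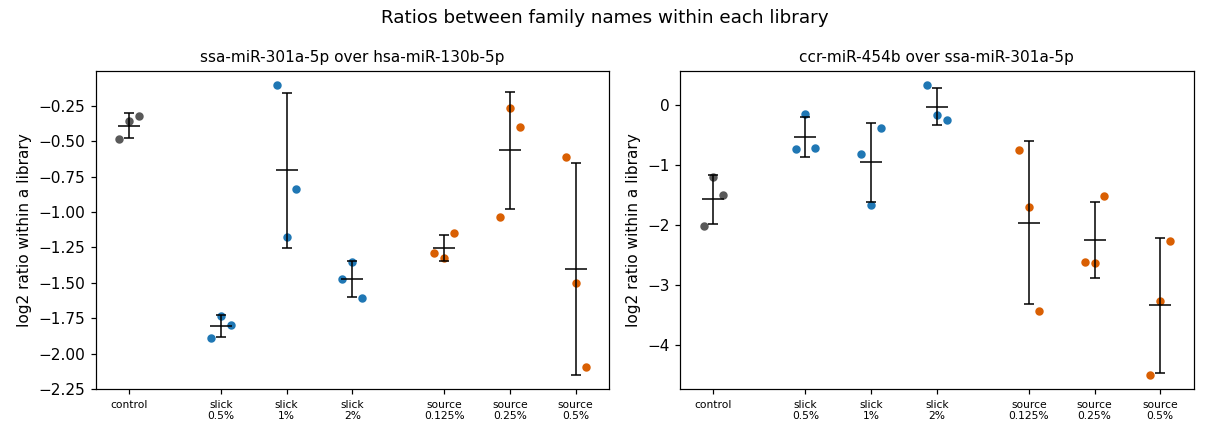
Log2 ratio of ssa-miR-301a-5p to hsa-miR-130b-5p (left) and of ccr-miR-454b to ssa-miR-301a-5p (right) within each of the 21 libraries; bars are group means with SD of 3 libraries. The left ratio is -1.89, -1.73 and -1.80 in slick L and -0.49, -0.36 and -0.32 in control, and the right ratio is highest in slick H and lowest in source H.

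Slick L and source H share the nominal 0.5% dilution, and the oil content of the water was not analysed here. At this dilution ccr-miR-454b averaged 104 ± 44.3 CPM in source H and 1043 ± 65.5 CPM in slick L (SD, n = 3 each). Likewise hsa-miR-130b-5p averaged 2656 ± 787 CPM in source H and 5362 ± 1091 CPM in slick L, ipu-miR-130c 100.2 ± 15.6 and 347 ± 98.0 CPM, and ola-miR-130c 51.4 ± 5.19 and 241 ± 62.6 CPM. For ssa-miR-301a-5p the means were 1012 ± 319 CPM in source H and 1524 ± 242 CPM in slick L, with the highest source H library at 1199 CPM and the lowest slick L library at 1246 CPM. All 3 source H libraries lay below all 3 slick L libraries for these 5 names, as they did for 29.3% of the 99 names. Only dre-miR-301c-5p overlapped among the 6, at 758 ± 299.9 CPM in source H and 899.8 ± 223 CPM in slick L. No test is given, because the source libraries chose the family.

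Families listed for a seed that may overlap that of miR-130 through the letters GUGC (miR-17, miR-19, miR-20, miR-93, miR-106, miR-148, miR-152, miR-302 and miR-430) were set beside the 6 names, by number and whatever their arm. The list may lack families with these letters and may hold entries without them. In source M 3 of 10 of these rose and 1 fell, where 10.7% of all names were called higher and 13.3% lower. The median log2 fold change was 0.37, against 0.32 over all names and -1.79 over the 6. The 6 were picked for low values under source oil, so the gap to them in source M and source H is not read. The names that rose were dre-miR-93 (1.55 ± 0.27), ola-miR-19b (1.495 ± 0.24) and ssa-miR-19c-4-5p (1.498 ± 0.24), and the name that fell was oan-miR-20a-5p (-1.59 ± 0.35). Both miR-19 entries had nearly the same values and may share reads. Whether each entry of this list carries its family's seed was not read. In source H 0 of 11 were called, beside 9.38% of all names. The median there was 0.28, against 0.17 over all names and -1.49 over the 6. In slick H 0 of 11 were called, beside 10.1% of all names, with a median of 0.62. Names of vascular families (miR-23, miR-24, miR-27, miR-126, miR-143, miR-145, miR-221 and miR-222), known from endothelium and smooth muscle, rose in 4 of 16 cases in slick H and 4 of 13 in slick L, with 0 lower in either. Of all names 6.33% were called higher in slick H and 8.18% in slick L. The median of the vascular list was 0.16 in slick H, with 6 of 16 below 0, and 0.15 in slick L, with 3 of 13 below 0, against 0.057 and 0.066 over all names. In each dose 3 of the 4 names that rose were miR-23 entries. Those named as 5p, dre-miR-23a-3-5p and ssa-miR-23b-5p, may share reads, while oar-miR-23b states no arm. In slick H the 4 were dre-miR-23a-3-5p (1.69 ± 0.19), oar-miR-23b (2.09 ± 0.22), ssa-miR-23b-5p (1.63 ± 0.22) and tgu-miR-126-5p (1.64 ± 0.23). In slick L they were dre-miR-23a-3-5p (1.44 ± 0.17), oar-miR-23b (1.81 ± 0.18), ssa-miR-23b-5p (1.86 ± 0.21) and tgu-miR-126-5p (1.79 ± 0.39). In source M 1 of 14 fell, tgu-miR-126-5p (-1.53 ± 0.15), where 13.3% of all names were called lower. In source H 0 of 15 were called, beside 9.38% of all names. The values in parentheses are log2 fold changes with their SE. In slick M and source L edgeR called 0 names of either list, beside 1.26% and 0% of all names.

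The names with the most similar levels across libraries are given by Pearson's r of log2 CPM over the 21 libraries, with r over the 14 libraries that did not stand apart after it. These values are a description, since all names share libraries and scaling. Within the family the closest pairs were ipu-miR-130c with ola-miR-130c (0.95 and 0.91) and dre-miR-301c-5p with ssa-miR-301a-5p (0.91 and 0.94). The pair of ccr-miR-454b and dre-miR-301c-5p had 0.30 over the 21 and -0.72 over the 14. With ipu-miR-130c ccr-miR-454b had 0.84 and -0.44, and with ola-miR-130c 0.88 and -0.19. Across the patterns ipu-miR-130c had 0.88 and 0.74 with ssa-miR-301a-5p, and 0.69 and 0.71 with dre-miR-301c-5p. For ola-miR-130c the values with ssa-miR-301a-5p were 0.73 and 0.43, and with dre-miR-301c-5p 0.49 and 0.37. Over the 14 libraries both miR-130c names were thus closer to the miR-301 5p names than to ccr-miR-454b. Outside the family ccr-miR-454b was closest to ola-miR-135a (0.97 and 0.35), oan-miR-20a-5p (0.97 and 0.89), sha-miR-92a (0.94 and 0.43). For dre-miR-301c-5p the closest were ssa-miR-18a-5p (0.85 and 0.84), mdo-miR-128a-5p (0.81 and 0.93), ggo-miR-499a (0.73 and 0.84), and for ssa-miR-301a-5p ssa-miR-18a-5p (0.77 and 0.69), hhi-miR-196 (0.76 and 0.53), dre-miR-737-5p (0.74 and 0.54). For hsa-miR-130b-5p they were ssa-miR-22b-5p (0.83 and 0.63), hhi-miR-196 (0.81 and 0.69), sha-miR-92a (0.76 and 0.43). For ipu-miR-130c they were ola-let-7g (0.91 and 0.32), hhi-miR-196 (0.89 and 0.44), efu-miR-27b (0.86 and 0.50), and for ola-miR-130c ola-let-7g (0.91 and 0.10), tgu-miR-196 (0.88 and 0.18), ola-let-7e (0.87 and -0.0019). Both miR-130c sets had lower values over the 14 libraries. So did ola-miR-135a and sha-miR-92a with ccr-miR-454b, and sha-miR-92a with hsa-miR-130b-5p. These likenesses rest in large part on the 7 libraries that stood apart.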

How the data were processed

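The 21 libraries were small RNA libraries made with the NEBNext multiplex kit from pooled whole larvae, per the labels' protocols. The authors deposited 6 tables of whole-number read counts per mature miRNA name, each with 3 exposed and 3 control libraries, per the file headers; no aligner, counter or genome build is given in the sources used here. The deposited result tables hold a mean signal per group from scaled counts, a score that is the difference of the means (not used), the log2 fold change and its raw and adjusted p-value. DESeq2 is named in the submitters' processing notes.

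Columns were joined to groups through the letters of their names, because their numbers do not follow the sample titles. Repeated lines of a name were reduced to the highest count per library (ccr-miR-454b stood on 2 lines of the source M table), and 6 blank control cells were filled from another table. Control counts were equal in all tables. The counts were tested with edgeR 4.0.16 (R 4.3.3): glmQLFit and glmQLFTest after TMM scaling and filterByExpr at its minimum count of 10 and total of 15, with Benjamini-Hochberg adjustment over all names of a comparison and a threshold of 0.05. The SE was taken as the size of the log2 fold change divided by the root of its F statistic. The fits were tested on simulated data. DESeq2 1.42.0 and the other alternatives are given in the closing section. The family, the lists and the tests were chosen with earlier results of these data known. All 6 names are named; other names follow the rule of the 3 highest r for each. Ratios and shares were added after the values were seen.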

Additional observations from a re-analysis of the deposited data

Results flagged for a closer look

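For 2 names every library of slick L lay above the control mean and every library of source H below it, at the nominal dilution of 0.5% that both share. How many of all names did the same was not counted, so this is not read as particular to the family. For ccr-miR-454b the source H mean differed from the control mean by -797 CPM and the slick L mean by 141 CPM. For hsa-miR-130b-5p the source H mean differed from the control mean by -832 CPM and the slick L mean by 1875 CPM. Against the control range the contrast was weaker. For ccr-miR-454b L4 and L6 of slick L lay inside that range, and L5 at 1117.7 CPM barely passed C5 at 1116.5 CPM. For hsa-miR-130b-5p H2 of source H lay inside it, at 3389.9 CPM. The difference between the oils was not tested, since source oil chose the family, and the 3 source H libraries belong to the set that stood apart.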

How the results depend on the processing

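The count of family names called was 0 in slick L by the design used, 1 with DESeq2 size factors, 1 with total counts as scaling, and 3 both among names counted in every library and by DESeq2. The shares of all names called in slick L were 14.5% by the design used, 16.4% with DESeq2 size factors, 13.8% with total counts, 38.6% among names counted in every library and 30.2% by DESeq2. Between slick H and slick L DESeq2 called 1 name of the family and 4.23% of all. In source L DESeq2 called 1 (and 17.1% of all names, against 0%) and in source H 5 against 3 (and 38.8% of all, against 9.38%). In source M total counts as scaling left 0 of 6 (and 4.67% of all, against 24%), with folds of the 6 no smaller than under TMM. Leaving out 1 library at a time gave between 0 and 2 names for slick H, between 3 and 5 for source M, between 0 and 4 for source H, and 0 in the other 6 comparisons. Of 432 alternative fold changes with slick oil 388 kept direction and side of the threshold, 8 lost their call, 10 gained one and 26 changed sign, all 26 uncalled before and after. With 1 library left out the log2 fold changes that changed sign ran, in slick L against control ipu-miR-130c from -0.26 to 0.15, ola-miR-130c from -0.11 to 0.50; in slick M against control ccr-miR-454b from -0.18 to 0.10, hsa-miR-130b-5p from -0.75 to 0.047, ipu-miR-130c from -0.43 to 0.24, ola-miR-130c from -0.093 to 0.50; in slick H against control ola-miR-130c from -0.51 to 0.069; in slick H against slick M hsa-miR-130b-5p from -0.040 to 0.86; in slick M against slick L dre-miR-301c-5p from -0.39 to 0.24, ipu-miR-130c from -0.32 to 0.35, ola-miR-130c from -0.21 to 0.37, ssa-miR-301a-5p from -0.089 to 0.29. Between slick M and slick L dre-miR-301c-5p, at -0.021, was at 0.037 with total counts, 0.018 among names counted in every library and 0.016 with repeated lines summed. The family sum in slick H was 7619.5 CPM with total counts as scaling, against 6907 CPM, and other group sums moved by less than 1 SD. Over all names the median log2 fold change was -0.25 with total counts against -0.0052 with TMM for source L, 0.13 against 0.32 for source M and -0.15 against 0.17 for source H. The cause of these differences was not tested. No paired analysis was possible because the count columns are numbered differently from the sample titles (M1, M3 and M5 in source M, C4 to C6 in control), so replicate numbers cannot be joined to columns. With 3 libraries a group, fold changes within about 1 SE of 0 have no sign that can be read.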
